A study of Rattus norvegicus with 4 samples.

Results

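The genes described here encode small GTPases and heterotrimeric G proteins, with the proteins that regulate them. Their mRNA was measured in mesenteric fat, a white adipose depot, of rats given oleoyl-estrone (OE). They were found by the gene names on the array, taking every name that contains ras-related, GTP-binding, guanine nucleotide-binding, GTPase or ADP-ribosylation factor and leaving out names with interferon or kinase. The rule found 43 of the 1185 spots. By name they fall into 15 Rab genes, 8 genes of ADP-ribosylation factors (ARF) and ARF-like proteins, 7 G protein alpha subunits, 6 beta and gamma subunits, 3 Ras and Ral genes and 4 regulators. All rats were female Wistar rats. The treated animals had received OE, the oleic acid ester of estrone, once a day by gavage, at 10 μmol/kg in a volume of 0.2 ml of sunflower oil, and the controls had received the oil alone. The tissue was taken from fed rats at 48 h. RNA of 2 control rats and 2 OE rats was hybridized as radiolabelled cDNA to nylon arrays, 1 rat per array, and the arrays are called control 1, control 2, OE 1 and OE 2. The comparison asks which genes of these families differ in mRNA level between OE-treated and control rats.

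A GTPase is a molecular switch that is active while it holds GTP and inactive once the GTP has been hydrolysed to GDP. In heterotrimeric G proteins the switch is the alpha subunit, which parts from the beta and gamma subunits when a receptor in the membrane is activated. In the adipocyte, Gs alpha stimulates adenylyl cyclase and so the cyclic AMP signal that drives lipolysis, and the Gi alpha subunits inhibit the same enzyme. The Rab and ARF proteins mark membranes and direct vesicle traffic, and proteins of the Ras branch relay growth factor signals. Exchange factors load these switches with GTP, GTPase-activating proteins turn them off, and dissociation inhibitors hold Rab proteins in their GDP-bound form.

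The array values are adjusted intensities, which are spot intensities minus the background of the array. A gene was called detected on an array where its adjusted intensity was at least 2 times the background, a limit of 120 for control 1, 108 for control 2 and 122 for either OE array. Of the 43 genes, 7 were detected on all 4 arrays (16.3%, against 8.44% of all spots) and 18 on at least 1 array (41.9%, against 24.1% of all spots). The other 25 were detected on no array, with 116 as their highest adjusted intensity. Control 1 detected 10 of the genes, control 2 11, OE 1 18 and OE 2 12. OE 1 had the highest adjusted intensity of the 4 arrays for 30 of the 43 genes (50.8% of all spots), and it was also the brightest array over all genes, so that comparisons between groups need a scaling. For this, each adjusted intensity was divided by the median of its array, which was 14, 9, 22 and 17 in the same order of arrays. These medians lay under the backgrounds of 54 to 61, so that this scaling rests on spots under the detection limit. Control 2 had the lowest median, yet over the genes detected on all 4 arrays its geometric mean was 563 against 524 on control 1. Scaled values are given in array medians.

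The arrays of a group were not alike. For the 5 adipocyte marker genes found, the summed adjusted intensity, unscaled, was 3750 and 20329 on controls 1 and 2, against 9404 and 8892 on OE 1 and OE 2. Most of this sum was the adipocyte fatty acid-binding protein, with 3532, 19033, 8811 and 8512. All 5 were highest on control 2. Fatty acid synthase, with 60, 182, 39 and 15, was lower on both OE arrays than on control 1, and the others were lowest on control 1. For 10 leukocyte markers it was 3784, 273, 6649 and 2558, and 0 of them were detected on control 2 against 6, 9 and 5 on the others. The adipocyte fatty acid-binding protein was detected on all 4 arrays, 3 of 4 intestinal markers were detected on OE 2 only and both mesothelial markers on control 2 only, with 1 of 2 smooth muscle markers detected on any array. None of the 12 markers of neurons and endocrine cells and none of the 4 pancreatic markers was detected on any array. In such bulk RNA fewer cells of a type and less RNA per cell cannot be told apart. The part of these cell types in the values below was not tested.

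**Figure D1:**
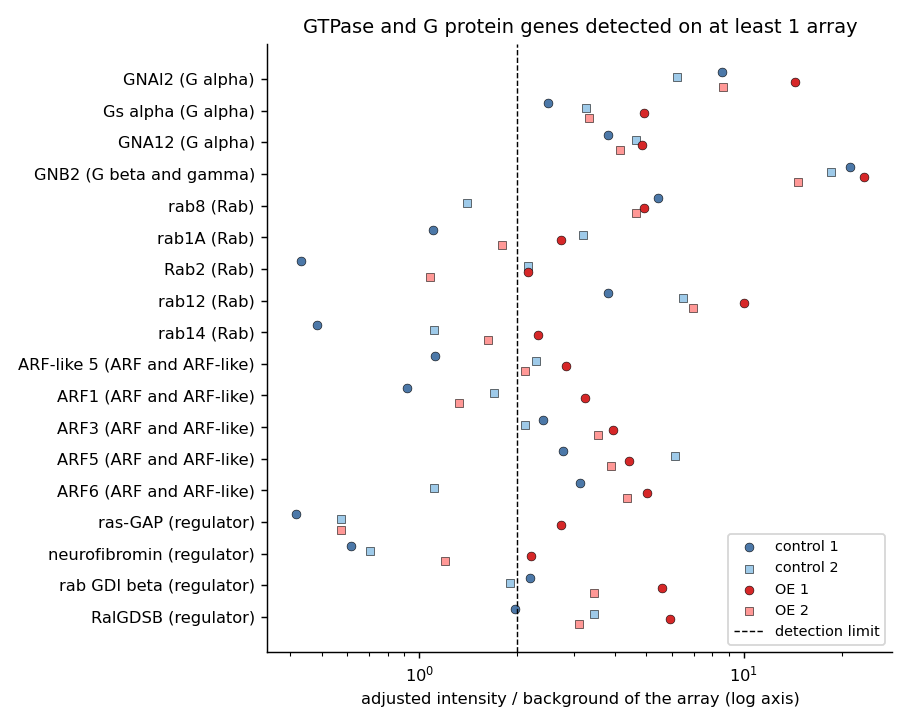
Adjusted intensity of the 18 genes detected on at least 1 array, divided by the background of the array (log axis), with 1 point per array and the role of the gene in parentheses. The dashed line marks the detection limit of 2 times the background. The 4 points lie right of it for 7 genes, and the OE 1 point (dark red) is the only one right of it for 4 genes, rab14, ARF1, ras-GAP and neurofibromin.

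Of the G protein alpha subunits, 3 of 7 were detected on all 4 arrays and the other 4 on none. GNAI2, a Gi alpha subunit that inhibits adenylyl cyclase, had adjusted intensities of 515 and 337 on the controls against 874 and 525 on the OE arrays. In array medians these were 36.8 and 37.4 on the controls against 39.7 and 30.9 on the OE arrays. The groups overlapped, with the controls lying between the OE values. The control mean was 37.1 ± 0.466 (SD, n = 2) and the OE mean 35.3 ± 6.25 (SD, n = 2), a ratio of OE to control of 0.951. It was 0.563 with the housekeeping genes as the reference and 1.64 without scaling.

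Gs alpha, the subunit that stimulates adenylyl cyclase, had adjusted intensities of 150 and 176 on the controls against 301 and 204 on the OE arrays, and scaled values of 10.7 and 19.6 against 13.7 and 12 array medians. Both OE values thus lay between the control values. The ratio was 0.848, and it was 0.657 without control 1 and 1.20 without control 2. When the arrays were scaled instead to the 100 genes detected on all 4 arrays, the ratio was 1.08 and both OE values lay above both controls.

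GNA12, a further alpha subunit, had adjusted intensities of 229 and 252 on the controls against 297 and 253 on the OE arrays. The scaled values were 16.4 and 28 on the controls against 13.5 and 14.9 on the OE arrays, so that both OE values lay below both controls. The means were 22.2 ± 8.23 (SD, n = 2) and 14.2 ± 0.977 (SD, n = 2) array medians, a ratio of 0.640. The control SD was larger than the difference between the means. This ratio depended on the scaling, at 0.815 with the genes detected on all 4 arrays as the reference, 0.400 with the housekeeping genes and 1.14 without scaling. In the limma fit over all 922 genes that passed the filter, the log2 fold change of GNA12 was -0.59, with a standard error of 0.62 and an adjusted p of 0.957. The alpha subunits detected on no array were GNAI1, GNAO, G-alpha-i3 and a spot named only as an alpha subunit, with adjusted intensities of 0 to 68. For GNAI1 the 68 was on control 2, and the other arrays had 10, 37 and 24.

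Of the 6 beta and gamma subunits, GNB2 was detected on all 4 arrays and the other 5 on none. The adjusted intensity of GNB2 was 1277 and 1002 on the controls against 1430 and 895 on the OE arrays. In array medians these were 91.2 and 111 on the controls against 65.0 and 52.6 on the OE arrays. Both OE values lay below both controls, as they also did after scaling to the genes detected on all 4 arrays. The control mean was 101 ± 14.2 (SD, n = 2) and the OE mean 58.8 ± 8.73 (SD, n = 2), a ratio of 0.581 that stayed between 0.520 and 0.645 with any array left out. The difference between the means exceeded the SD of both groups, each taken from 2 values. It did so for none of the other 6 genes detected on all 4 arrays. The share of all genes tested for which this holds was not counted. With limma the log2 fold change of GNB2 was -0.78, with a standard error of 0.58 and an adjusted p of 0.957. Its 95% confidence interval ran from -2.28 to 0.71. The size and direction of the difference rested on the processing. The ratio was 0.350 with the housekeeping genes, 0.597 with the 75th percentile and 0.609 after quantile normalization. It was 0.698 with the genes detected on all 4 arrays, 0.868 without background subtraction and 0.879 with normexp background correction. Without scaling it was 1.02, with OE 1 above both controls and OE 2 below both. The spots for transducin beta-1 and GNB3, which have the neighbouring codes on the array, had adjusted intensities of 16 to 42 and 5 to 16. The gamma subunits GNG7 and G gamma-9 reached 22 and 64 at most, and GNB5, which did not pass the filter, reached 10.

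The Rab genes were the largest family, with 1 of 15 detected on all 4 arrays, 4 on some and 10 on none. The gene detected throughout was rab12, a Rab of endosomal traffic, with 229 and 351 on the controls against 612 and 426 on the OE arrays. Scaled, these were 16.4 and 39.0 on the controls against 27.8 and 25.1 array medians. The OE values lay between the controls, whose SD of 16.01 around a mean of 27.7 covered them. The ratio was 0.955, and leaving out control 1 or control 2 moved it to 0.678 or 1.62. Scaled to the genes detected on all 4 arrays it was 1.25, with both OE values above both controls.

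Of the 4 Rab genes detected on some arrays, none was detected on both controls. Adjusted intensities of rab8, which acts in transport from the Golgi to the cell surface, were 327 and 76 on controls 1 and 2, against 300 and 283 on the OE arrays. Control 2 alone was under the limit. For rab1A, which acts between the endoplasmic reticulum and the Golgi, they were 66 and 172 on the controls against 167 and 110 on the OE arrays, so that control 2 and OE 1 were over the limit. Rab2, which acts in the same step, had 26 and 117 on the controls against 132 and 66 on the OE arrays, with the same pair of arrays over the limit. For rab14, of the Golgi and endosomes, the values were 29, 60, 142 and 99, and OE 1 alone passed the limit. Both OE intensities of rab14 were above both controls. In array medians the groups overlapped, at 2.07 and 6.67 on the controls against 6.45 and 5.82, and after scaling to the genes detected on all 4 arrays both OE values were again above both controls. The scaled values of rab8, rab1A and Rab2 overlapped between the groups, with ratios of 0.952, 0.590 and 0.665. Without control 1 the ratios were 1.79 for rab8, 0.368 for rab1A and 0.380 for Rab2, and without control 2 they were 0.648, 1.49 and 2.66. The ratios over 1 rest on a control under the detection limit, and those under 1 on the higher control. For rab1A and Rab2, OE 2 was under its limit as well.

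Among the Rab genes detected on no array, rab13, a Rab of traffic to cell junctions and the cell surface, had adjusted intensities of 62 and 80 on the controls against 35 and 26 on the OE arrays. In array medians these were 4.43 and 8.89 against 1.59 and 1.53, and both OE values lay below both controls. It was the only one of the 40 genes tested with an unadjusted p under 0.05 in limma, where p was 0.0273 and the adjusted p 0.957. Of all 922 genes, 2.06% had an unadjusted p under 0.05. Both OE values were also the lowest in the unscaled intensities, but every value was under the detection limit. Its ratio therefore enters the counts below and is not given as a fold change. Rab-4a and rab26 did not pass the filter, with adjusted intensities of 0 to 13.

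Of the ARF and ARF-like genes, 2 of 8 were detected on all 4 arrays, 3 on some and 3 on none. ARF3, an ARF of the Golgi, had 144 and 114 on the controls against 241 and 216 on the OE arrays, which were 10.3 and 12.7 against 10.95 and 12.7 array medians. The groups overlapped, and the means of 11.5 ± 1.68 (SD, n = 2) and 11.8 ± 1.24 (SD, n = 2) gave a ratio of 1.03. With limma the 95% confidence interval of its log2 fold change of 0.05 ran from -1.44 to 1.54, so that a change of 2-fold in either direction lay inside it. ARF5, which recruits vesicle coats at the Golgi, had 166 and 332 on the controls against 270 and 237 on the OE arrays. Its scaled values were 11.9 and 36.9 against 12.3 and 13.9 array medians. Control 2 stood above the other 3 arrays, and control 1 was below both OE arrays. The ratio of 0.538 became 0.355 without control 1 and 1.11 without control 2.

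ARF6, which acts at the plasma membrane in endocytosis and actin remodelling, had adjusted intensities of 188 and 60 on controls 1 and 2, against 307 and 267 on the OE arrays. It was detected on every array except control 2, where rab8 was under the limit too. Its scaled values were 13.4 and 6.67 on the controls against 13.95 and 15.7 on the OE arrays, with both OE values above both controls and a ratio of 1.48. The ratio was 1.10 without control 2, and after scaling to the genes detected on all 4 arrays the groups overlapped. ARF-like 5 had 67, 124, 173 and 129 and passed the limit on all arrays but control 1. ARF1, which recruits the coat of Golgi vesicles, had 55, 92, 198 and 81 and passed it on OE 1 alone. In array medians the groups overlapped for both genes, with a ratio of 0.832 for ARF-like 5. ARF2, ARF4 and ARF-like 1 stayed between 2 and 74.

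All 4 regulators were detected on at least 1 array. Rab GDI beta, which holds Rab proteins in their GDP-bound form, had adjusted intensities of 132 and 103 on the controls against 340 and 210 on the OE arrays. Control 2 was just under its limit of 108. The scaled values were 9.43 and 11.4 on the controls against 15.5 and 12.4 on the OE arrays, so that both OE values lay above both controls. The means were 10.4 ± 1.43 (SD, n = 2) and 13.9 ± 2.19 (SD, n = 2) array medians, a ratio of 1.33 that ran from 1.18 to 1.48 with any array left out. With the housekeeping genes as the reference it was 0.803. The limma log2 fold change was 0.41, with a standard error of 0.58 and an adjusted p of 0.957. RalGDSB, an exchange factor for Ral, had 118 and 186 on the controls against 362 and 190 on the OE arrays, with control 1 just under its limit of 120. The scaled groups overlapped, and the ratio of 0.950 was 0.668 without control 1 and 1.64 without control 2.

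The other regulators, ras-GAP and neurofibromin, both speed the hydrolysis of GTP on Ras. ras-GAP had adjusted intensities of 25 and 31 on the controls, 167 on OE 1 and 35 on OE 2. Scaled, these were 1.79 and 3.44 on the controls against 7.59 and 2.06 array medians, so that OE 2 lay between the controls and OE 1 stood apart. The ratio of the means was 1.85, and without OE 1 it was 0.787. Scaled to the genes detected on all 4 arrays, the ratio was 2.25 and both OE values lay above both controls. Neurofibromin had 37 and 38 on the controls, 135 on OE 1 and 73 on OE 2, or 2.64 and 4.22 against 6.14 and 4.29 array medians, with both OE values above both controls and a ratio of 1.52. On the controls these 2 genes, like rab14 and ARF1, were under the detection limit, which was 8.57 and 12 array medians there. Because these limits exceeded the geometric mean of their OE values, the data set no lower bound above 1 on their fold change.

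All 3 Ras and Ral genes were under the detection limit on all 4 arrays. Ral B had adjusted intensities of 7 and 14 on the controls against 46 and 28 on the OE arrays, and 0.5 and 1.56 against 2.09 and 1.65 array medians. Both OE values lay above both controls. Ral A had 26, 50, 116 and 55, and m-ras had 18, 68, 40 and 32. In array medians the groups overlapped for either gene. Scaled to the genes detected on all 4 arrays, both OE values of Ral A lay above both controls, while the groups still overlapped for m-ras.

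**Figure D2:**
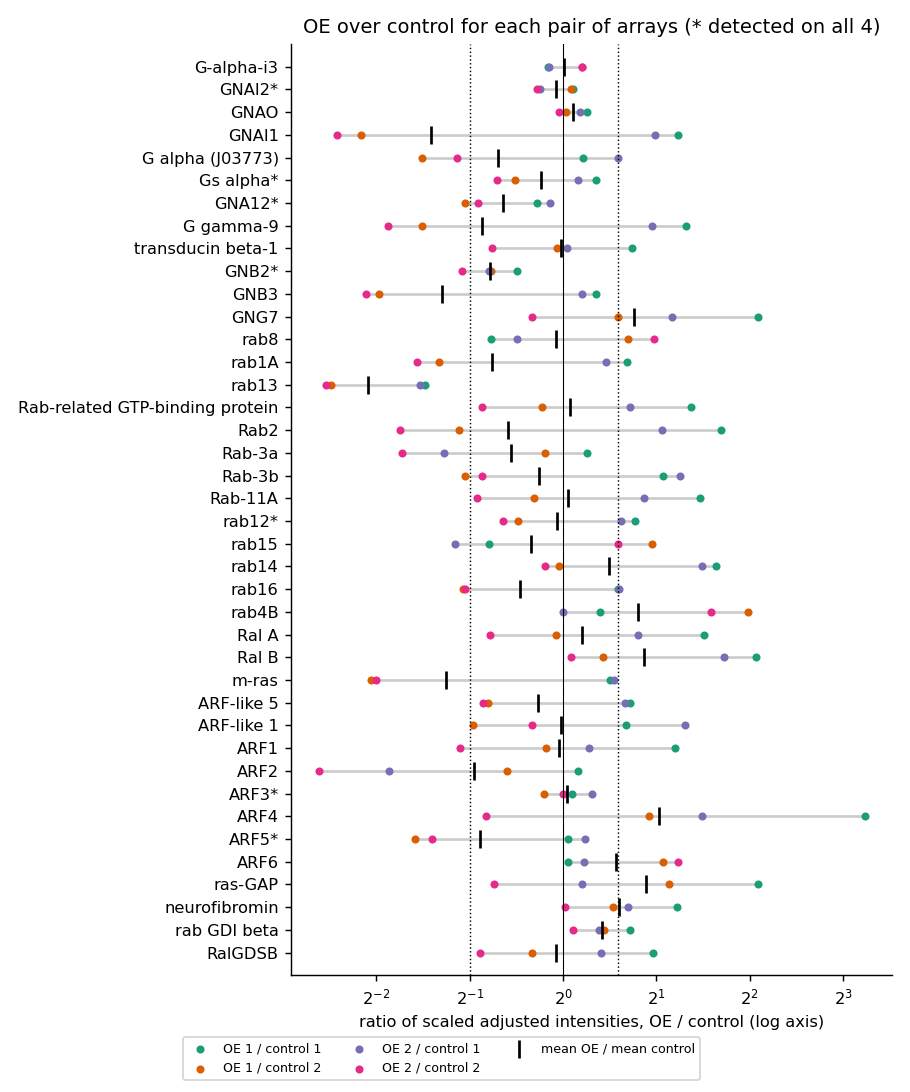
Ratio of OE to control (log axis) for the 40 genes that passed the filter, with 1 point for each of the 4 pairs of arrays and a black bar for the ratio of the group means. Dotted lines mark the ratios 0.5 and 1.5, and an asterisk marks the 7 genes detected on all 4 arrays, whose black bars all lie between these lines. For 24 genes the pairs with control 1 (green and purple) and those with control 2 (orange and pink) lie on opposite sides of 1. The share of all genes tested for which this holds was not counted.

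Taking the families as 1 list, 40 of the 43 genes passed the filter, for which a gene had to exceed the floor on each array of 1 group or of both. A gene could pass through the group in which it was higher. Of the 40, 4 gave a ratio under 0.5 (10%, against 18.3% of the 922 genes tested) and 6 a ratio over 1.5 (15%, against 18.9%). The genes under 0.5 were rab13, GNAI1, GNB3 and m-ras, and those over 1.5 were ARF4, ras-GAP, Ral B, rab4B, GNG7 and neurofibromin. Of these 10 genes, 8 were detected on no array and ras-GAP and neurofibromin on OE 1 alone. None was detected on all 4 arrays, whereas of the 100 genes so detected 16% were under 0.5 and 5% over 1.5. The 7 members detected on all 4 arrays had ratios from 0.538 to 1.03. With the housekeeping genes as the reference these ran from 0.350 to 0.622, and without scaling from 1.02 to 1.79. Both OE values lay below both controls for 3 of the 40 genes (7.5%, against 15.8% of all genes tested), namely GNB2, GNA12 and rab13. They lay above both for 4 (10%, against 14.1%), namely ARF6, rab GDI beta, neurofibromin and Ral B. After scaling to the genes detected on all 4 arrays, the numbers were 4 (12.7% of all genes tested) and 12 (20.2%). In array medians, both OE values lay below both controls for 26% of the 100 genes detected on all 4 arrays. Among the 7 members so detected, this held for GNB2 and GNA12.

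limma called 0 of the 40 genes at an adjusted p under 0.05, as it did 0% of the 922 genes. Adjusted p-values of the members ran from 0.957 to 0.997, and 1 gene, rab13, had an unadjusted p under 0.05. For the 7 genes detected on all 4 arrays the log2 fold changes lay between -0.78 and 0.06 and their standard errors between 0.58 and 0.77. With 2 arrays a group, the smallest two-sided p that exact permutation of the labels allows is 0.333, and such a test was therefore left out. The median log2 ratio of the 40 genes was -0.07, beside -0.16 for all genes tested. By family the median ratio was 0.838 for the 13 Rab genes that passed, 0.980 for the 8 ARF and ARF-like genes, 0.848 for the 7 alpha subunits, 0.581 for 5 beta and gamma subunits, 1.15 for the Ras and Ral genes and 1.43 for the regulators. Most values behind these medians were under the detection limit.

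The arrays differed more within the control group than within the OE group. For 27 of the 40 genes (67.5%, against 57.6% of all genes tested) the scaled values of the controls were over 2-fold apart, and for 4 genes (10%, against 22.5%) those of the OE arrays were. Control 2 was the higher control for 23 of the 27 (57.5% of the 40 genes, against 37.1% of all genes) and the lower for rab8, ARF6, rab15 and rab4B (10%, against 20.5%). Scaled to the genes detected on all 4 arrays, the controls were over 2-fold apart for 15 genes (52.2% of all genes tested), with control 2 higher for 10 (21.8%) and lower for 5 (30.4%), and the OE arrays for 4 (22%). The genes over 2-fold apart between the OE arrays were ras-GAP, ARF2, ARF4 and Rab-3a. Among the 7 genes detected on all 4 arrays, the controls were over 2-fold apart for ARF5 (3.11-fold) and rab12 (2.38-fold), which became 1.86-fold and 1.43-fold with that other scaling. Across the 40 genes, which are not independent replicates, the log2 values of the OE arrays had a correlation of 0.957 and those of the controls of 0.838. Pairs of a control and an OE array had 0.904 and 0.924 with control 1 and 0.872 and 0.886 with control 2.

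**Figure D3:**
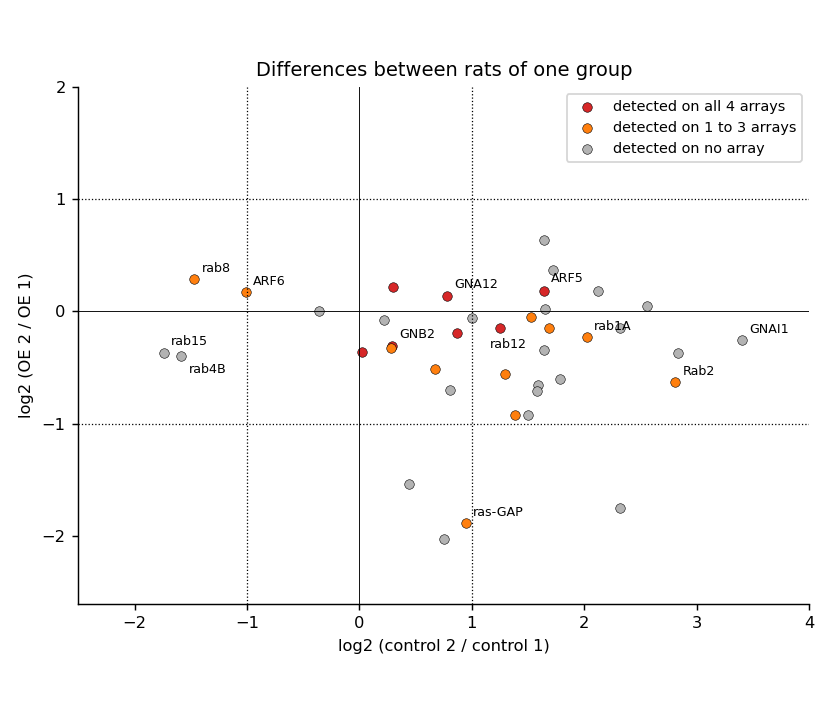
Difference between the arrays of a group for the 40 genes that passed the filter, as the log2 ratio of control 2 to control 1 (horizontal) and of OE 2 to OE 1 (vertical), coloured by the number of arrays on which a gene was detected. Dotted lines mark 2-fold differences. The points spread along the horizontal axis and mostly to its right, where control 2 is the higher control, while 4 points lie below the lower dotted line and none above the upper one.

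With this scaling the direction of the list depended on the control array. Against control 1 the median log2 ratio of the 40 genes was 0.68 for OE 1 and 0.40 for OE 2. Against control 2 it was -0.27 and -0.85. For all genes tested the same 4 medians were 0.20, 0.08, -0.24 and -0.43. Scaled to the genes detected on all 4 arrays, the medians of the 40 genes were 0.46 and 0.45 against control 1 and 0.25 and -0.06 against control 2, so that the sign also rests on the scaling. Before any scaling both OE intensities lay above both control intensities for 23 of the 43 genes (30.8% of all spots). In array medians the ratio stayed under 1 with any array left out for 4 genes, GNB2, GNA12, rab13 and ARF2. It stayed over 1 for 6 genes, rab GDI beta, ARF6, neurofibromin, Ral B, GNG7 and rab4B. Of these 10 genes, GNB2 and GNA12 were detected on all 4 arrays, and without scaling their ratios were 1.02 and 1.14. The share of all genes tested that kept a direction in this way was not counted.

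**Figure D4:**
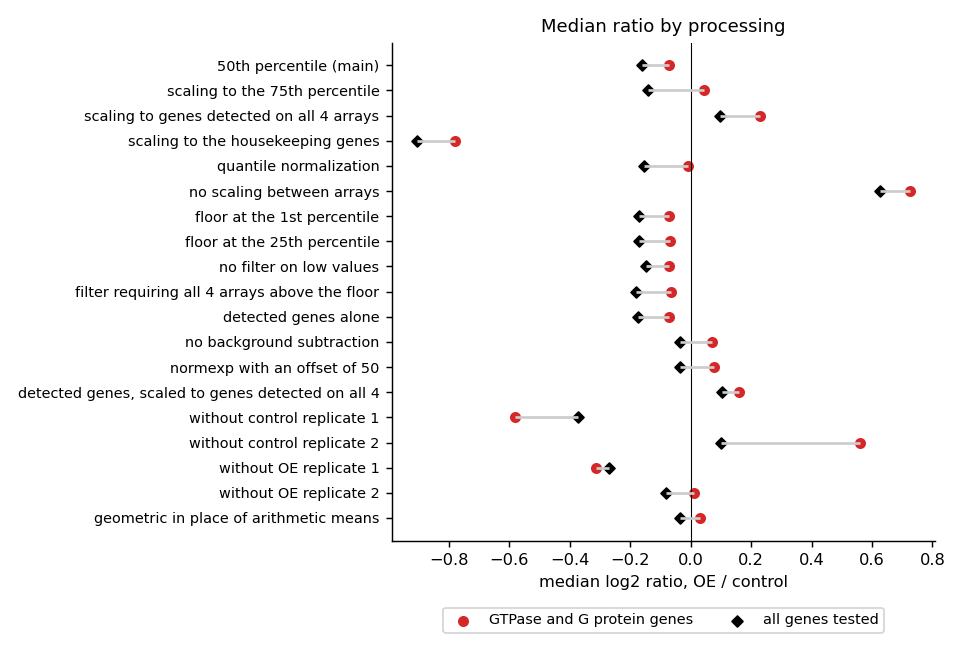
Median log2 ratio of OE to control under each processing, for the GTPase and G protein genes (red circles) and for all genes tested (black diamonds). The red circle lies at -0.07 with the 50th percentile, at -0.78 with the housekeeping genes and at 0.73 without scaling, and at -0.58 and 0.56 without control 1 and without control 2.

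Genes that act next to these proteins were taken from lists of names, with the genes above left out. limma called 0 of them at an adjusted p under 0.05, in either direction. Of 7 spots found for adenylyl cyclases, which include 1 receptor matched by its letters, 0 were detected on any array. Of 10 spots for receptor desensitisation, which include a glutamate receptor matched by its letters, 3 were detected somewhere and 0 on all arrays. Among them beta-arrestin 2, which uncouples receptors from G proteins, had adjusted intensities of 210 and 58 on controls 1 and 2, against 441 and 201 on the OE arrays, and beta-ARK1, a kinase of activated receptors, had 231, 28, 194 and 125. Both were under the limit on control 2, as ARF6 and rab8 were. Of 5 phosphodiesterases 1 was detected, and it was phosphodiesterase 4B, which degrades cyclic AMP. It passed the limit on the same 3 arrays, with 293, 81, 377 and 259.

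The remaining lists gave few detected genes. Of the 9 spots for adrenergic receptors, 2 of which are receptor kinases, 1 was detected, and it was beta-ARK1. The beta 2 adrenergic receptor had 48, 22, 107 and 43, all under the limit. Of 6 phospholipase C genes 3 were detected somewhere, and of the 2 spots for exchange factors and dissociation inhibitors 0 were. The list of Ras and raf proto-oncogenes held 7 spots, 2 of which (the cell cycle inhibitor p21 cip1 and the kinase PAK-alpha) were matched by their letters. Of the 7, 2 were detected on all 4 arrays. These were c-K-ras, with adjusted intensities of 331 and 270 on the controls against 509 and 304 on the OE arrays, and A-raf, a kinase activated by Ras, with 253 and 217 against 418 and 194. Their ratios were 0.765 and 0.721, with both OE values below both controls for c-K-ras and overlapping groups for A-raf.

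The series also holds a table of the adjusted intensities of all 4 arrays, and its column for OE 1 did not match the file of that array in the stretch that holds most of these genes. By their values on the other 3 arrays, 932 rows of the table could be matched to spots. Among these, 239 differed on OE 1, and in 239 of 239 the table held the value of the preceding spot in the order of the array, between codes E07d and F13a. Of the 43 genes 37 were matched and 31 differed, each holding the value of the preceding spot. For GNB2 the table gave 42 on OE 1 where the file of the array gave 1430 and the other arrays 895 to 1277. For GNB3 it gave 1430 where the file gave 10 and the other arrays 5 to 16. All values above come from the files of the arrays. With the table in their place, 11 of 36 genes had a ratio under 0.5 (22.3% of the 798 genes then tested). The values above gave 4 of 40 (18.3% of 922).

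**Figure D5:**
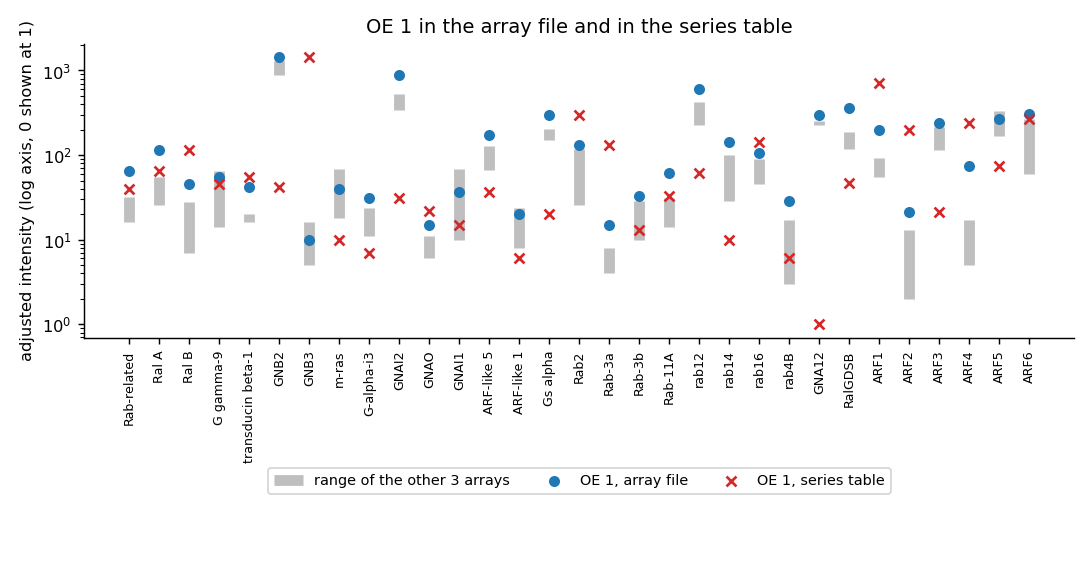
Adjusted intensity (log axis, with 0 drawn at 1) on OE 1 in the file of the array (blue circles) and in the series table (red crosses), beside the range of the other 3 arrays (grey bars), for the 31 genes whose values differ. The red cross for GNB3 stands at the height of the blue circle for GNB2, 1430, and the same step to the next spot is seen from ARF3 to ARF4.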

How the data were processed

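Mesenteric fat RNA of 2 control and 2 OE rats was measured on nylon cDNA arrays. The authors deposited intensity values from their image software, namely spot, background and adjusted intensity (spot minus background, 0 if negative), unscaled between arrays. Per the file headers each file also held a second array, 12 columns in all, not used here.

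Adjusted intensities were divided by the 50th percentile of their array, as the methods state, with a floor of 0.235 array medians, the 10th percentile of all positive values after scaling. The 922 genes that exceeded the floor on each array of 1 group or of both were tested. The GeneSpring control strength filter of the methods was not repeated. The ratio is mean OE over mean control, with the cutoffs 0.5 and 1.5 of the methods. Log2 values were compared with limma 3.58.1 (lmFit, eBayes, group only) in R 4.3.3, with Benjamini-Hochberg adjustment over all 922 genes. A test on simulated data required only that large changes be found at low noise. The power at the spread of these arrays is not given. With 1 rat per array, the p-values rest on the spread between arrays, in which rat, dissection and hybridization cannot be told apart. limma shares this spread over the genes, and 2 arrays per group limit the precision.

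The members, lists and tests were chosen with earlier results of these data known. The genes named were those detected (at least 2 times the background) on any array with their values, the undetected genes with the 3 lowest and 3 highest ratios among those above the floor on all 4 arrays without overlap (only rab13 and Ral B qualified), and Ral B and ras-GAP as genes the study lists. Other names were added after their values were seen. The alternatives were other scalings, floors, filters, background corrections and detection limits, geometric means, a replicate block, the series table and leaving out each array. How far a spot distinguishes close relatives such as ARF1 and ARF3 was not tested.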

Additional observations from a re-analysis of the deposited data

How the results depend on the processing

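In limma 0 genes had an adjusted p under 0.05 in all 21 alternatives as in the reported fit, and their smallest adjusted p-values ran from 0.171 to 0.999. At an unadjusted p under 0.05 the reported fit gave 1 gene. Shares of all genes tested are given in percent in parentheses. The 4 of 40 genes with a ratio under 0.5 (18.3%) became 2 with the 75th percentile (15.2%) or geometric means (13.3%). With the genes detected on all 4 arrays as the reference (11.3%) or without scaling (3.46%) the count was 1. It was 14 of 39 with the housekeeping genes (45.2%), 7 of 42 with a floor at the 1st percentile (20.6%) and 11 of 36 with the series table (22.3%). With detected genes alone (14.6%), without background subtraction (0.88%) or with normexp at an offset of 50 (0.905%) it was 0. The 6 of 40 genes over 1.5 (18.9%) became 10 of 40 with the genes detected on all 4 arrays as the reference (26.3%). They became 24 of 40 without scaling (51.0%) and 3 of 41 without background subtraction (6.68%). With the housekeeping genes (5.14%) or detected genes alone (9.36%) there were 0. The median log2 ratio of -0.07 became -0.78 with the housekeeping genes and turned positive with the 75th percentile (0.046), the genes detected on all 4 arrays (0.23), no scaling (0.73), no background subtraction (0.071), normexp (0.077) and geometric means (0.032). For all genes tested the median moved with the scaling too, from -0.91 to 0.63. With detected genes alone scaled to those detected on all 4 arrays, added once the data had been seen, 0 of 12 genes were under 0.5 (7.60%). There 2 were over 1.5 (17.5%), and the median log2 ratio was 0.16. Leaving out each array in turn gave 2 of 41 genes under 0.5 without control 2 (12.1%) to 12 of 41 without control 1 (31.0%). Over 1.5 there were 2 of 40 without OE 1 (18.7%) to 19 of 41 without control 2 (30.1%). The medians ran from -0.58 without control 1 to 0.56 without control 2. With an array left out, the lone array of its group is assumed to vary like the other group. The number detected on all 4 arrays, 7 (8.44% of all spots), was 13 at 1 time (15.1%) and 4 at 3 times the background (6.24%). The cause of these shifts was not tested beyond the change in reference or in the genes kept that each alternative makes. Among single genes, neurofibromin turned to a ratio of 0.943 with the housekeeping genes and ras-GAP ran from 0.787 without OE 1 to 2.90 without OE 2. The replicate numbers did not pair the arrays, with a correlation of 0.0495 between the deviations of same-numbered arrays over 922 genes. A replicate block gave 0 genes at an adjusted p under 0.05. The median log2 ratio with the block was 0.032, the same as with geometric means. In this balanced design a block cannot change the group estimate.

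Of the 43 genes 25 were under the detection limit on every array, and their ratios rest on values under that limit.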
